A study of Selaginella kraussiana with 4 samples.

Results

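The rhizophore tip and the stem, both axial organs of the lycophyte Selaginella kraussiana, were compared across 22310 merged loci, out of 31210 merged loci in the series. Each organ was sequenced as 1 library, and without replicates the differences carry no p-value. The tables list loci assembled separately in each of the 4 libraries of the series. Overlapping loci (sharing 1 bp or more of a contig) were joined into merged loci, and each library's FPKM values were summed within them. Merged loci of at least 300 bp with an FPKM of at least 1 in the rhizophore tip or the stem were kept. FPKM counts sequenced fragments, divided by transcript length in kilobases and by library total in units of 1000000. A locus with no entry in a library was entered as 0 there. Such a 0 marks a locus that was not assembled, and reads may still have been present.

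The plants carried no stated mutation, transgene or treatment, and all were grown under one light and temperature regime. Total RNA of the rhizophore (labelled rhizophore, and rhizophore tip in the methods of the study) was set against total RNA of the stem. The age of the plants, the number of plants per library and whether tissue was pooled are not given in the sources used here. A leaf library (of the microphyll, as a lycophyte leaf is called) and a library labelled seedling served as context. The methods name a shoot tip among the tissues, but list the read number of this library under seeding, near its label. It is called the shoot tip here because the other 3 names correspond. Whether it also held stem and leaves is not stated.

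The rhizophore of Selaginella arises from the angle meristem at a branch point of the shoot. It carries no leaves, grows downwards and produces roots at its tip. The stem of S. kraussiana is prostrate, and its vascular strands run through an air space that is bridged by elongated endodermal cells. The stem sample thus comes from an organ that holds vascular strands, and the rhizophore tip sample from the tip of a root-bearing organ. How mature the sampled stem was is not stated. The tables carry no gene names, strands, transcript structures or sequences, so no locus below is assigned to a gene or a function, and the labelled tissues could not be checked against marker genes.

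The tables held 29549 rhizophore tip loci and 28860 stem loci, all with the status OK. The deposited lower and upper bounds were taken to lie 2 Poisson standard deviations from the FPKM, which gives a number of fragments behind each locus. This number is too low where fragments were shared between transcripts. Merged loci that were kept rested on a median of 292 fragments in the rhizophore tip, against 245 in the stem. For levels of at least 10 and under 100, the bounds lay at a median distance of 7.97% from the FPKM in the rhizophore tip, against 8.39% in the stem. For levels of at least 1 and under 10, this distance was 22.9% in the rhizophore tip, against 23.4% in the stem. The bounds cover counting error within a library and not the variation between plants.

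Of the 26055 merged loci of at least 300 bp, 1474 stayed under an FPKM of 1 in both organs and 2271 were assembled in neither. The lowest FPKM that admitted a merged locus was 1.00052, and the highest that left one out was 0.999067. A further 3753 merged loci reached an FPKM of 1 but were at most 299 bp long, and 28 of those kept had a length of exactly 300 bp. The merged loci that were kept lay on 19518 contigs of the authors' draft genome, and 17245 of them were alone on their contig. Their lengths ran from 300 bp to 26344 bp, with a median of 1118 bp.

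Levels in both organs were within 2-fold for most of the merged loci, in terms of FPKM + 1. The difference used throughout is log2(FPKM + 1) in the rhizophore tip minus log2(FPKM + 1) in the stem. It stayed within 1 in either direction for 14310 merged loci (64.1%). The middle part of the distribution ran from -0.55 (lower quartile) to 0.73 (upper quartile) around a median of 0.12. The Spearman correlation of the 2 libraries across merged loci was 0.784. Loci of 1 library share its depth and are not replicates, so the correlation is a description. The median FPKM was 12.9 in the rhizophore tip, against 11.3 in the stem, and an FPKM of 100 was reached by 2033 merged loci in the rhizophore tip, against 2089 in the stem.

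A smaller group of merged loci stood far apart. The difference was at least 2, which is 4-fold for loci well above the pseudocount, for 1578 merged loci (7.07%), which were higher in the rhizophore tip. It was at most -2 for 1347 merged loci (6.04%), which were lower in the rhizophore tip. At a difference of 1, there were 4250 (19.0%) and 3750 (16.8%) merged loci in the same directions. In bulk RNA, fewer cells of a type and less RNA per cell cannot be told apart. The intervals of the 2 libraries lay apart at 1536 of the 1578 and at 1328 of the 1347. Loci not assembled in one organ, 730 of the 1578 and 509 of the 1347, have no bounds there. Most of them were still counted as apart, which is no evidence of a difference. Over all kept loci, the intervals lay apart at 8595 with the rhizophore tip higher and 6540 with it lower, and overlapped at 7175. The loci were chosen by the same FPKM values, so the intervals give no separate support.

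The balance between the directions depended on the scaling. Centring the libraries by median-of-ratios factors took 0.12 from the difference of a well expressed locus and left 1472 merged loci higher and 1474 lower by 2 or more. Rescaling to TPM over all merged loci, including those under 300 bp, took 1.23 from it and gave 350 higher and 1985 lower. Rescaling over the kept loci alone gave 1531 higher and 1191 lower. An excess of one direction over the other is therefore not a result of these tables.

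**Figure D1:**
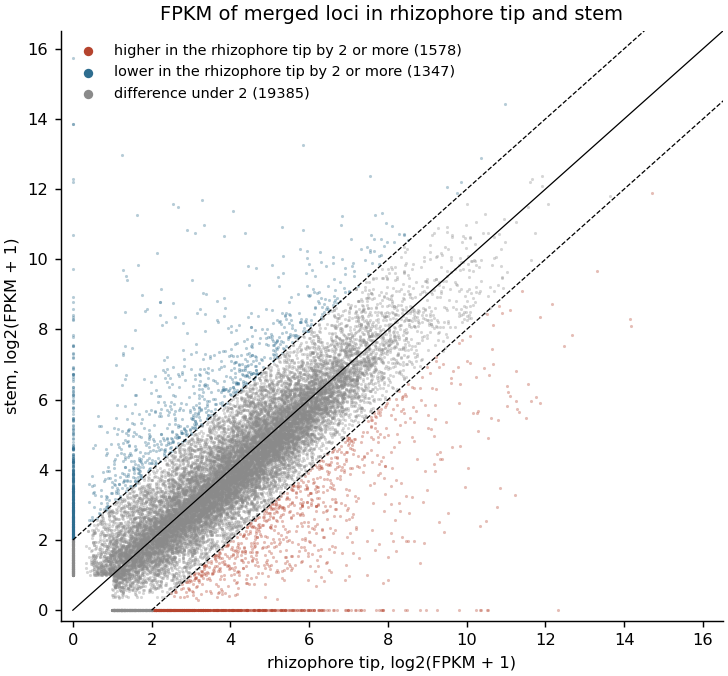
Level of each of the 22310 merged loci in the rhizophore tip (horizontal axis) and the stem (vertical axis), both in log2(FPKM + 1), 1 library each. The solid line marks equal levels and the dashed lines a difference of 2, and the points on the axes are loci that were not assembled in one organ. Most points follow the solid line, with 1578 beyond the lower dashed line and 1347 beyond the upper one.

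The 1578 merged loci higher in the rhizophore tip were at low levels in the stem, which their choice fixes. Their median in the microphyll was also low, and that in the shoot tip lay between those of both organs. Their median FPKM was 21.7 in the rhizophore tip (quartiles 7.40 and 73.2), against 0.799 in the stem (quartiles 0 and 5.83). It was 6.92 in the shoot tip and 1.44 in the microphyll. The shoot tip value lay between the values of the rhizophore tip and the stem at 881 of these loci, at or above the rhizophore tip value at 268, and at or below the stem value at 429. The microphyll value lay at or below the stem value at 896 of them. These counts include loci assembled in neither of the tissues set side by side, 290 of the 429 for the shoot tip and 469 of the 896 for the microphyll. Loci chosen for a wide gap between both organs leave much room for another tissue between them. The counts were not set against shares over all kept loci, so they are a description. The 1578 loci held 25% of the summed FPKM of the kept loci in the rhizophore tip, against 1.73% in the stem, where the choice of the loci by these values fixes the direction.

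The 1347 merged loci lower in the rhizophore tip had their higher context level in the microphyll. Their median FPKM was 2.03 in the rhizophore tip (quartiles 0 and 13.2), against 31.4 in the stem (quartiles 8.49 and 126). It was 7.76 in the shoot tip and 12.0 in the microphyll. The microphyll value was at or above the stem value at 411 of these loci, between the values of both organs at 596, and at or below the rhizophore tip value at 340. The shoot tip value was between both organs at 681, at or above the stem at 236 and at or below the rhizophore tip at 430. Of the 340 and the 430, 137 and 186 were assembled in neither tissue. Over all 22310 merged loci, for comparison, the median FPKM was 12.3 in the shoot tip and 10.6 in the microphyll. Here too, the choice of the loci by a wide gap favours values between both organs. No test of these context levels was possible with 1 library per tissue.

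**Figure D2:**
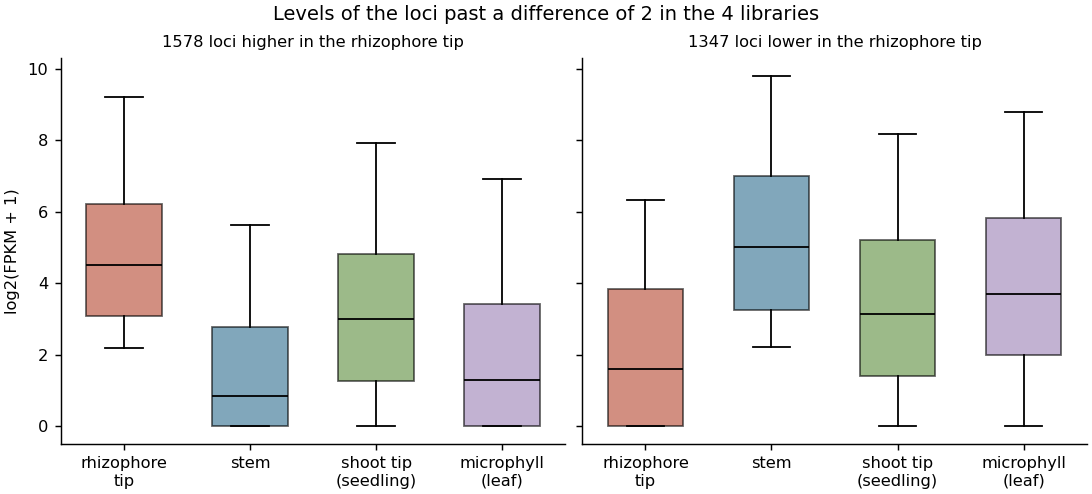
Levels in log2(FPKM + 1) in the 4 libraries for the 1578 merged loci higher in the rhizophore tip (left) and the 1347 lower in it (right). Boxes give the median and quartiles over loci and whiskers the central range from the 5th to the 95th percentile. In the left panel the shoot tip median of 6.92 FPKM lies above those of the stem and the microphyll, and in the right panel the microphyll median of 12.0 FPKM lies above the shoot tip median of 7.76 FPKM.

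Part of the large differences came from loci that were assembled in one organ only. Of the 22310 merged loci, 19698 (88.3%) were assembled in both organs, 1517 in the rhizophore tip and not in the stem, and 1095 in the stem and not in the rhizophore tip. Loci assembled in one organ only were weakly expressed for the most part, with a median of 2.86 FPKM and 31.9 fragments for those of the rhizophore tip, and of 2.78 FPKM and 26.4 fragments for those of the stem. A difference past 2 was reached by 730 of the 1517 and by 509 of the 1095. Of the 730 loci, 219 were assembled in neither the shoot tip nor the microphyll, 250 in the shoot tip alone of these, 71 in the microphyll alone and 190 in both. Of the 509 loci of the stem, 91 were assembled in neither, 46 in the shoot tip alone, 95 in the microphyll alone and 277 in both. With no counts in the tables, no fold is given for a locus that is listed in one organ only.

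The assembled span of a locus differed between the libraries, and the largest differences in FPKM were found where it did. The span is the distance on the contig from the start to the end of the locus in a library. Of 14833 merged loci with exactly 1 locus in each organ, the rhizophore tip locus was longer at 7711, shorter at 6525 and of identical span at 597, with a median ratio of 1.00. The spans were within 1.25-fold of each other at 12815 of them, called loci of like span below. Among loci of like span, 376 (2.93%) were higher and 326 (2.54%) lower in the rhizophore tip by 2 or more. Among the 2018 others with 1 locus in each organ, 194 (9.61%) were higher and 187 (9.27%) were lower. The Spearman correlation between the organs was 0.863 over loci of like span.

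At the most unequal spans, the organ with the shorter span mostly had the higher FPKM. Where the rhizophore tip locus was at least 4 times shorter than the stem locus (25 loci), 16 were higher in the rhizophore tip by 2 or more and 1 was lower. Where it was at least 4 times longer (29 loci), 0 were higher and 21 were lower. At 244 merged loci with a locus under 300 bp in the rhizophore tip and a longer one in the stem, the median difference was 0.95. At 334 with the short locus in the stem it was -0.66. The fragment difference, the log2 ratio of fragments without a length term, had medians of the opposite sign at these loci, -0.19 with the short locus in the rhizophore tip and 0.57 with it in the stem. A longer span can gather more fragments, so an opposite sign can follow from how these loci were chosen. It does not show which measure is right. FPKM divides the fragments by the length of the transcript, and loci under 300 bp supplied 14.5% of the summed FPKM of the kept loci in the rhizophore tip, against 21.2% in the stem, although they were 3.72% of the listed loci within kept loci in the rhizophore tip, against 4.21% in the stem.

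**Figure D3:**
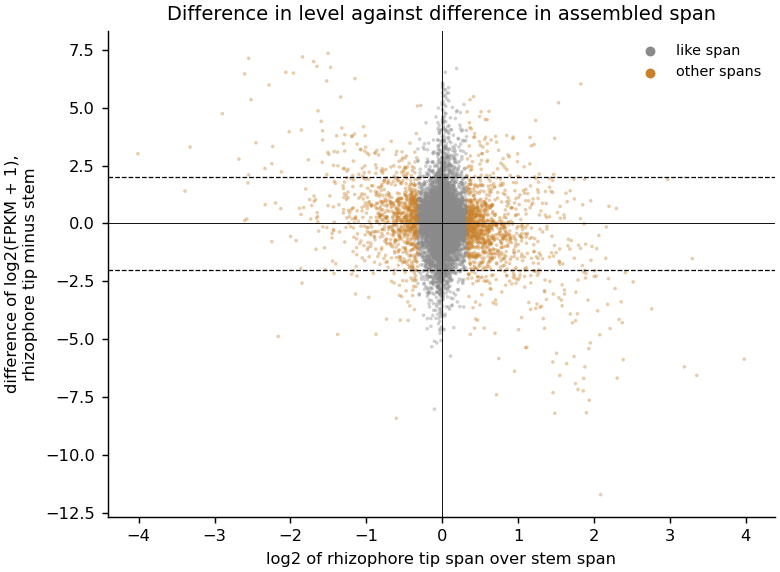
Difference of log2(FPKM + 1), rhizophore tip minus stem, against the log2 ratio of the assembled spans for the 14833 merged loci with 1 locus in each organ. Grey points are the 12815 loci of like span, orange points the others, and dashed lines mark differences of 2 and -2. Orange points far to the left lie mostly above 0 and those far to the right mostly below it.

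The number of fragments gave a second measure, which is not divided by length where a library had 1 locus. A longer span can gather more fragments, so at unequal spans this measure favours the organ with the longer one. The number is also too low where fragments were shared between transcripts, at like span as well. It is therefore no length-free check of the FPKM. Where a library had several loci, as at 4865 merged loci assembled in both organs, the number came from the summed FPKM and combined bounds. Short pieces with a high FPKM then weigh more, so length enters. The fragment difference was the log2 ratio of fragments in the rhizophore tip over those in the stem, after scaling by the ratio of the library totals (1.08, from 5625 loci with nearly equal spans), with no library set under 11 fragments. It could be read at the 21474 merged loci without a lower bound of 0 in either organ. It was at least 2 at 1824 of them (8.49%) and at most -2 at 1502 (6.99%). Both measures passed 2 at 894 of the 1578 merged loci higher in the rhizophore tip and at 630 of the 1347 lower in it. The fragment difference had the opposite sign at 153 of the higher and 167 of the lower loci. Of the loci of like span, 277 of the 376 higher and 224 of the 326 lower passed 2 on both measures.

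The context levels of the loci past 2 on both measures had the same order. These loci are part of the 1578 and the 1347, so the order is no separate support. Of the 894 higher, 438 were assembled in both organs, and of the 630 lower, 367 were. For the others the fragment difference depends on the minimum of 11 fragments, and an FPKM of 0 marks a locus that was not assembled. The 894 loci higher in the rhizophore tip on both measures had a median of 18.3 FPKM in the rhizophore tip, against 0 in the stem, with 6.67 in the shoot tip and 0.341 in the microphyll. The 630 lower on both measures had a median of 1.25 FPKM in the rhizophore tip, against 22.6 in the stem, with 6.40 in the shoot tip and 11.1 in the microphyll. For loci of like span the levels were higher throughout. The 376 higher in the rhizophore tip had medians of 45.5 FPKM in the rhizophore tip, 4.81 in the stem, 19.2 in the shoot tip and 2.66 in the microphyll, which here lay below the stem. The 326 lower in it had medians of 8.21 FPKM in the rhizophore tip, 74.0 in the stem, 23.3 in the shoot tip and 35.3 in the microphyll.

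Differences past 2 were found at every level at which the scale allows them. By the mean FPKM of both libraries, 738 (8.59%) were higher and 545 (6.34%) lower in the rhizophore tip from 1 to under 10. From 10 to under 100 there were 631 (6.04%) higher and 531 (5.08%) lower. From 100, where 12.5% of the merged loci held a locus under 300 bp, there were 209 (9.69%) higher and 271 (12.6%) lower. The most abundant class thus held more loci lower than higher in the rhizophore tip. So it did among loci of like span, with 63 (5.24%) higher and 92 (7.65%) lower from 100, against 230 (3.47%) and 191 (2.88%) from 10 to under 100. In this most abundant class, median-of-ratios factors gave 197 higher and 293 lower, and TPM over all merged loci gave 125 and 623. Both scalings take from the difference of a well expressed locus, so they could not have turned the order. TPM over the kept loci, which shifts the difference slightly the other way, gave 215 and 258. From 10 to under 100, median-of-ratios factors turned the order to 582 higher and 591 lower, and TPM over all merged loci to 225 and 1236. On both the FPKM and the fragment measure together, the most abundant class held 78 higher and 82 lower, and 44 and 46 at like span, so the directions were nearly equal there. The 1114 merged loci with a mean under 1 could not reach a difference of 2.

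The share of merged loci past 2 in FPKM declined with length. From 300 to under 600 bp it was 10.1% higher and 8.50% lower in the rhizophore tip, and from 2400 bp it was 5.01% higher and 4.64% lower. Over loci of like span it was 3.27% and 2.40% in the shortest class and 2.63% and 2.43% in the longest. Counting like-span loci past 2 on both measures, there were 108 higher and 67 lower of 3577 in the shortest class. There were 74 and 63 of 3398 in the next, then 67 and 70 of 3369, and 28 and 24 of 2471 in the longest. On that count the share higher declined with length, and the share lower fell clearly only in the longest class. A locus under 300 bp in one of both organs was held by 18.1% of the merged loci from 300 to under 600 bp and by 1.58% of those from 2400 bp. The part that short loci have in the decline was not tested beyond these counts.

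**Figure D4:**
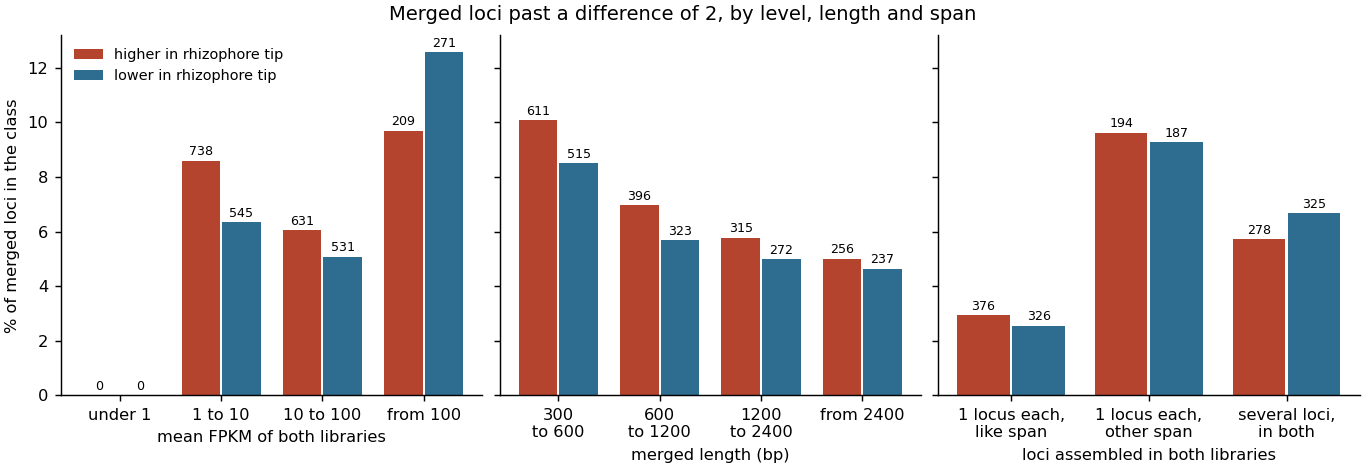
Share of merged loci past a difference of 2, as a percentage of each class, by mean FPKM of both libraries (left), merged length (middle) and kind of assembly (right). Red bars are loci higher in the rhizophore tip, blue bars loci lower in it, and the number above a bar is the count of loci. Among the 3 kinds of assembly drawn, all of them assembled in both organs, the bars of like span (376 and 326 loci) are the lowest.

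By the rule for named loci, 2 loci are described in each direction, and all 4 had a short piece assembled in one organ. The largest difference with 1 locus in each organ was at contig 100974 from 275 to 623 (7.36). Its FPKM was 1828 (bounds 1542 and 2113) in the rhizophore tip over a span of 123 bp, against 10.2 (bounds 7.70 and 12.6) in the stem over 349 bp. They rested on 164 fragments in the rhizophore tip, against 68.7 in the stem, a fragment difference of 1.15. The locus was also short in the other libraries, with an FPKM of 858 over 121 bp in the shoot tip, and 488 over 123 bp in the microphyll.

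The highest FPKM of a locus not assembled in the stem was 5156 (bounds 3410 and 6903) in the rhizophore tip, at contig 077910 from 662 to 968. It was the sum of 2 loci, with 34.9 fragments read from their combined bounds. The shoot tip had 3758 (21.6 fragments in the same way, 2 loci). In the microphyll it was 3.93 FPKM, from 1 locus. Similar fragment numbers thus stood behind FPKM values that lay far apart, though a number for 2 loci is not a count of their fragments.

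The lowest difference with 1 locus in each organ was -11.72, at contig 044188 from 1 to 404. Its FPKM was 1.36 (bounds 0.632 and 2.08) in the rhizophore tip over 404 bp, against 7979 (bounds 3167 and 12790) in the stem over 95 bp. The microphyll had 22324 over 92 bp and the shoot tip 1.27 over 403 bp. The fragments were 14 in the rhizophore tip, against 11 in the stem, so the fragment difference was 0.24 and had the opposite sign. The highest FPKM of a locus not assembled in the rhizophore tip was 55085 (bounds 23161 and 87009) in the stem, at contig 067981 from 1606 to 2340. It rested on 11.9 fragments over 182 bp, and was 11044 over 184 bp in the microphyll. The shoot tip had 20 fragments there with an FPKM of 0.974 over 735 bp. At contigs 100974 and 044188 the FPKM values of both organs rest on pieces of unequal span. At contigs 077910 and 067981 the other organ had no locus. A difference in level was not tested at these 4 loci.

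Loci of like span with both lower bounds above 0 were therefore ranked in turn, a choice made after these values were seen. The 3 with the largest difference in favour of the rhizophore tip were well covered there. At contig 042736 from 1 to 349, the FPKM was 405 (bounds 390 and 419) in the rhizophore tip, against 2.90 (bounds 1.39 and 4.42) in the stem, a difference of 6.70. It was 22.1 in the shoot tip and not assembled in the microphyll. At contig 046217 from 2 to 1765 it was 362 (bounds 350 and 374) in the rhizophore tip, against 2.92 (bounds 1.54 and 4.31) in the stem, a difference of 6.53. Here too the shoot tip (46.7 FPKM) lay between both organs, and the microphyll (0.589 FPKM) below both.

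The third, on contig 073645 from 1 to 384, was among the most abundant of the kept loci. It had an FPKM of 18458 (bounds 18368 and 18548) in the rhizophore tip, against 271 (bounds 259 and 282) in the stem, a difference of 6.09. The fragments were 167495 in the rhizophore tip, against 2300.1 in the stem, and the span was 384 bp in the rhizophore tip, against 383 bp in the stem. Its FPKM was 2161 in the shoot tip and 594 in the microphyll, so all 3 other tissues expressed it at a lower level.

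The 3 loci of like span with the lowest differences were lower in the rhizophore tip by 5 or more on the log2 scale. At contig 052056 from 1 to 426, the FPKM was 1.60 (bounds 0.802 and 2.41) in the rhizophore tip, against 678 (bounds 662 and 694) in the stem, a difference of -8.03. It was assembled over the same 426 bp in the microphyll (249 FPKM) and the shoot tip (92.3 FPKM), so the rhizophore tip was the tissue with the lowest level by far. At contig 059548 from 1 to 523 it was 7.89 (bounds 6.18 and 9.61) in the rhizophore tip, against 357 (bounds 346 and 368) in the stem, a difference of -5.33. The shoot tip (5.74 FPKM) was near the rhizophore tip there and the microphyll (47.1 FPKM) was higher.

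The remaining one lay on contig 043884, from 530 to 1730. Its FPKM was 8.87 (bounds 7.91 and 9.82) in the rhizophore tip, against 525 (bounds 502 and 548) in the stem, a difference of -5.74. The fragments read from the intervals were 346 in the rhizophore tip, against 2066 in the stem, so the fragment difference was smaller, at -2.68. The microphyll had 3.97 FPKM and the shoot tip 65.2 FPKM. The shoot tip had 2941 fragments over 1169 bp for that FPKM, and the stem 2066 over 1096 bp for its 525. Beside the shoot tip and the rhizophore tip, the stem number was low for its FPKM at a similar span. The fragments therefore do not place the shoot tip above the stem, and the reason for the low number was not tested.

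Loci assembled in one organ only, with no piece under 300 bp in either, were ranked by their fragments, again after values were seen. In the rhizophore tip, the top one was at contig 004580 from 1926 to 2658, with an FPKM of 1491 (bounds 1475 and 1507) on 35227 fragments. Next came contig 067271 from 1 to 547, with 359 (bounds 350 and 368) on 6088 fragments. Neither was assembled in the stem, the shoot tip or the microphyll. At contig 062935 from 1 to 587 the FPKM was 207 (bounds 201 and 214) on 3994 fragments, and of the other tissues the shoot tip alone listed it, with 2.53 FPKM over 277 bp on 13.0 fragments.

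In the stem, the top locus was at contig 103824 from 69 to 935, with an FPKM of 229.7 (bounds 224 and 235) on 6429 fragments, and it was assembled in no other tissue. The next loci were also listed in the microphyll and the shoot tip. At contig 053143 from 12 to 525 the FPKM was 485 (bounds 472 and 497) in the stem, with 37.9 in the shoot tip and 115 in the microphyll. At contig 044895 from 1 to 761 it was 145 (bounds 139 and 150) in the stem, with 107 in the shoot tip and 18.5 in the microphyll. Neither was assembled in the rhizophore tip. The origin of loci listed in 1 library alone was not tested.

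**Figure D5:**
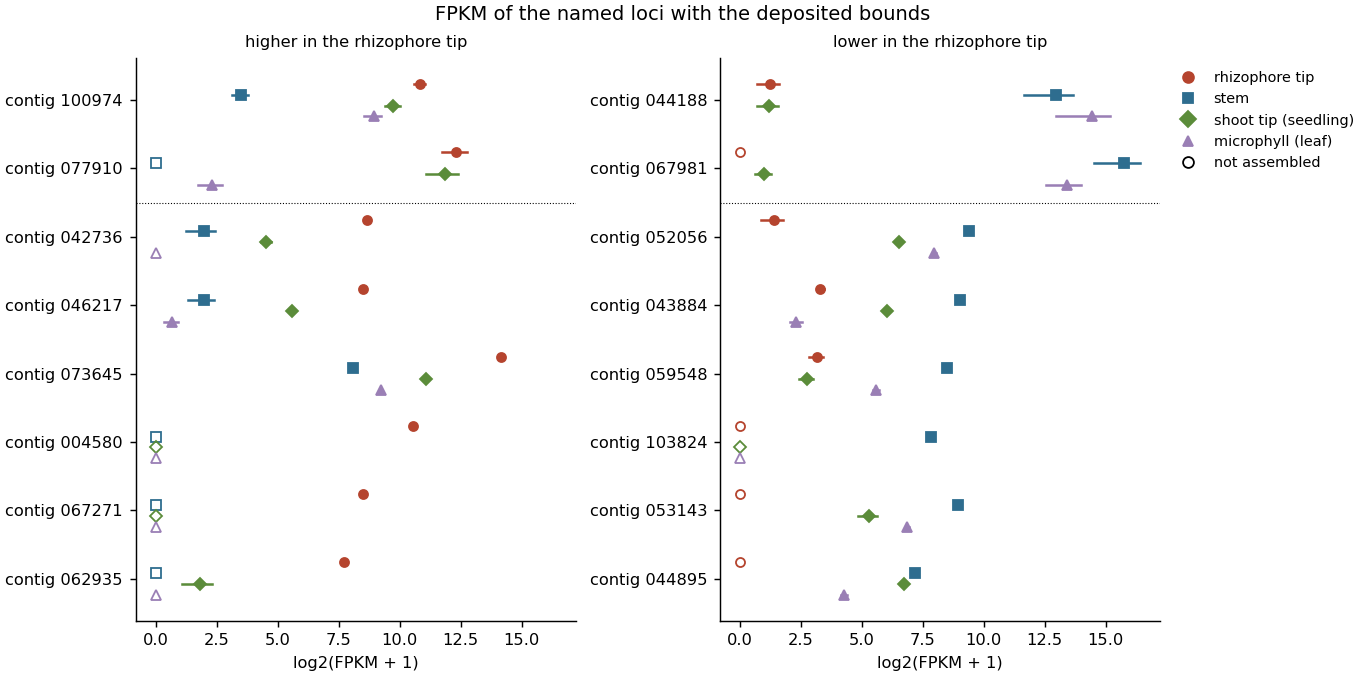
Levels of the 16 named loci in log2(FPKM + 1), with 8 higher in the rhizophore tip on the left and 8 lower in it on the right. Symbols give the FPKM in each of the 4 libraries, lines the deposited bounds, and open symbols at 0 a locus that was not assembled. The loci above the dotted line follow the rule for named loci and hold short pieces, those below it were chosen after values were seen.

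Loci next to each other on a contig showed little relation. Over 2792 pairs of adjacent merged loci, the Spearman correlation of their differences was 0.05. Both loci passed 2 in 60 pairs, 38 of them in one direction, and exactly 1 locus did so in 652 pairs. Over all 22310 merged loci, 2925 passed 2 in either direction. Whether the 60 pairs exceed what this share alone would give was not tested.

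The same rule applied to the pairs with the shoot tip gave smaller shares past 2, and these pairs share a library with the one described here. For the shoot tip over the stem, 1304 of 22145 merged loci (5.89%) were higher and 1333 (6.02%) lower in the shoot tip. For the shoot tip over the rhizophore tip, 1133 of 22337 (5.07%) were higher and 1190 (5.33%) lower in the shoot tip. Whether the rhizophore tip and the stem differ more than these pairs was not tested, since each tissue has 1 library.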

How the data were processed

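For each of 4 tissues, RNA of 1 library was sequenced. The authors trimmed the reads, aligned them with TopHat to contigs assembled with ABySS, and assembled and quantified transcripts with Cufflinks in each library by itself. The authors deposited FPKM values per locus and the lower and upper bounds of each FPKM, with no counts. Starts in the tables count from 0 and are given here from 1.

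Overlapping loci were merged (Python 3.11.15, pandas 2.3.3, numpy 2.4.6), FPKM was summed, bounds were combined as squares of the half-widths, and log2(FPKM + 1) was compared. The computation was tested on simulated data. Fragments were taken as the square of 2 FPKM over the distance to the upper bound, with summed FPKM and combined bounds for several loci. The number 11 was the minimum set for a library. Named loci were, in each direction, the one with the largest difference among those with 1 locus in each organ and the one with the highest FPKM that was not assembled in the other organ. Members, thresholds and alternatives were chosen with earlier results of these data known. Alternatives were the pseudocount, scaling, filters, the size of the difference, the intervals, the merging and a fragment minimum. No genome sequence, gene list or annotation was used here.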

Additional observations from a re-analysis of the deposited data

How the results depend on the processing

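Of 20 alternative settings, 10 left the number of merged loci higher in the rhizophore tip by 2 or more (1578) within 1.5 times and 10 left the number lower (1347) within 1.5 times. The others, higher first and lower second, gave 2603 and 2170 with a pseudocount of 0.1, 719 and 646 when it was 5, 967 and 832 from 600 bp, 2479 and 2140 with no filter on length, 848 and 838 over loci assembled in both organs, 4250 and 3750 at a difference of 1, and 731 and 526 at a difference of 3. By construction, these settings let more or fewer loci pass. TPM over all merged loci, which took 1.23 from the difference of a well expressed locus, gave 350 higher. The source of that shift was not tested. At most 1 locus in each library kept 15413 of the 22310 merged loci and gave 836 lower. With settings chosen after seeing the data there were 376 and 326 at like span, and 894 and 630 on both measures together.

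The median difference of 0.12 was reversed to -0.65 by TPM over all merged loci. It was 0.14 with a pseudocount of 0.1, 0.083 with 5, 0.021 with median-of-ratios factors, 0.15 from an FPKM of 10, 0.10 over loci assembled in both organs, 0.15 with at most 1 locus in each library, and 0.17 with TPM over the kept loci, which was chosen after seeing the data. The 6 settings tried on the 16 named loci kept the sign of each except contig 044188, which was reversed to 0.24 by fragments. These loci were chosen for differences of 5.33 or more in size, so changes of pseudocount or scaling could not turn a sign. At loci not assembled in one organ, the fragment value depends on the minimum of 11. The Spearman correlation ran from 0.622 (FPKM of at least 10) to 0.863 (like span). Loci listed in 1 organ rested on a median of 31.9 fragments in the rhizophore tip, against 26.4 in the stem, and the part of depth in this was not tested. No paired analysis was possible because the design holds a single library of each tissue, and no replicate could be left out either.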
